A study of Mus musculus with 3 samples.

Results

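The pancreatic lipases, colipase and phospholipase are the fat-digesting enzymes that acinar cells secrete, and 6 genes were followed: Pnlip, Pnliprp1, Pnliprp2, Clps, Cel and Pla2g1b. They were chosen by name, and their probes were found through the RefSeq accession printed in the scanner tables. This gave 7 probes, 2 for Clps and 1 for each of the other 5 genes, out of 55664 probes and 21150 named genes. The study measured ADM cells (acinar-to-ductal metaplasia, in which acinar cells take on duct-like features), duct cells and acinar cells of the mouse pancreas on 1 Agilent 1-colour array each. The cells came from frozen pancreas of 3 wild-type (WT) mice, 48 h after pancreatitis induced with caerulein, a cholecystokinin analogue that overstimulates acinar cells. Every group, acinar cells included, had therefore had pancreatitis, and no untreated pancreas was analysed here. Cells were cut out by laser microdissection. How each kind of cell was recognised, and how many mice contributed RNA to an array, are not given in the sources used here. With 1 array per group no difference had a replicate check, no test was possible, and precision is set by the number of arrays.

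Fat digestion in the gut needs several of these proteins together. Pnlip, pancreatic triglyceride lipase, cuts fatty acids from dietary triglycerides, but bile salts push it off the fat droplet. Clps, colipase, is the small cofactor that anchors it there. Pnliprp1 and Pnliprp2 are relatives of Pnlip encoded beside it on chromosome 19. Pnliprp1 has little known activity on triglycerides, and Pnliprp2 acts on galactolipids and phospholipids as well as triglycerides. Cel, the bile-salt-stimulated carboxyl ester lipase, splits cholesteryl and vitamin esters. Pla2g1b, pancreatic phospholipase A2, is secreted as a proenzyme that trypsin activates, and it releases a fatty acid from phospholipids. The genes are classical acinar genes, and the acinar transcription factor complex PTF1 (Ptf1a with an E protein and Rbpjl) is known for binding promoters of digestive enzymes.

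The level of every one of the 6 genes was highest on the acinar array, intermediate on ADM and lowest on duct. A level here is the log2 processed signal minus the 75th percentile of that array, so a probe at 0 lies at that percentile, and a difference of 1 is 2-fold. In ADM against acinar, all 6 were at least 2-fold lower, where 22.0% of 13632 genes compared were lower by that much. The 6 differences had a median of −2.99 log2 units (7.96-fold lower in ADM), and the median over all genes compared was 0. In ADM against duct, all 6 were at least 2-fold higher, against 21.6% of 14475 genes, with a median of 3.37 (10.4-fold) where all genes had −0.05. In duct against acinar, all 6 were at least 2-fold lower, against 24.6% of 13826 genes, with a median of −5.93 (61.1-fold). The direction of each of these 18 differences was kept under 10 other ways of processing. The 2 filters among these could not change it, since all 6 genes were well above background on all 3 arrays. In dissected tissue, fewer cells of a type and less RNA per cell cannot be told apart.

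**Figure D1:**
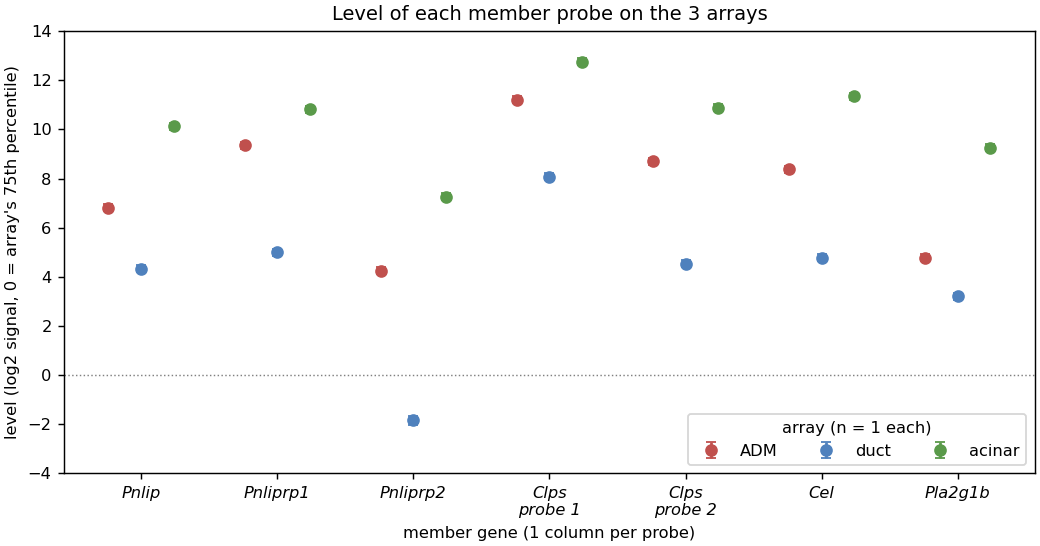
Level of each of the 7 probes on the ADM, duct and acinar arrays (vertical axis, log2 processed signal with 0 at the 75th percentile of the array; 1 array per group). Bars are the Feature Extraction error of the spot, mostly smaller than the points; in each column acinar is highest and duct lowest, and the duct level of Pnliprp2 is −1.83, the only one below 0.

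The promoters of these genes are shown because the members move together and because their sequence was compared for sites of the acinar factors. RefSeq promoter windows were at hand for 5 members, Clps being the other. The Pnliprp2 window, chr19:58759473-58759722 on the plus strand, was searched like the others but is not printed. Each printed stretch covers the 250 bases before the annotated gene start on build GRCm38.p6, 5′ to 3′ on the strand of the gene. Capitals mark E-boxes (CANNTG, the class of site bound by Ptf1a and its partner) and TGGGAA or its complement TTCCCA (the core bound by Rbpj and Rbpjl). The Pnlip window is chr19:58670115-58670364 on the plus strand, Pnliprp1 is chr19:58728637-58728886 on the plus strand, Cel is chr2:28563404-28563653 on the minus strand, and Pla2g1b is chr5:115465892-115466141 on the plus strand.
Pnlip: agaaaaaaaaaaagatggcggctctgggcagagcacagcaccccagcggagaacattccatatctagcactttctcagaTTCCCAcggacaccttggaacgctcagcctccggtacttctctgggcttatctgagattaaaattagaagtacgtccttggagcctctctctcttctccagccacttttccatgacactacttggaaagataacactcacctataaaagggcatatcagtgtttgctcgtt
Pnliprp1: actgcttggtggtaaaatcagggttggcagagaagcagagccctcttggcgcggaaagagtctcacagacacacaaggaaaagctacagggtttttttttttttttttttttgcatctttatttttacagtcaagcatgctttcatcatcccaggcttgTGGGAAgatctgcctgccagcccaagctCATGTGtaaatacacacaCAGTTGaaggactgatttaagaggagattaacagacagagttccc
Cel: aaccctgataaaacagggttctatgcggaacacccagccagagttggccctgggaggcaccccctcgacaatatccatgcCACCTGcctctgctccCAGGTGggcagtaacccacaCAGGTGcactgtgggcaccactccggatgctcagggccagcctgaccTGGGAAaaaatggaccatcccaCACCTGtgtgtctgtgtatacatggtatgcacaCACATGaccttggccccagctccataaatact
Pla2g1b: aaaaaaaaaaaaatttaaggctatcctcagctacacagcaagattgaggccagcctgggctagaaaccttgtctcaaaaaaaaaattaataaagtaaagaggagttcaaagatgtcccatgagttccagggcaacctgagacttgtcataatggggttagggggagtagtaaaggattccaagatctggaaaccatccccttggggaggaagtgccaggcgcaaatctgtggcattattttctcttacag

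The Cel window held 5 E-boxes, starting 170, 154, 134, 65 and 32 bases before the gene start, and TGGGAA at 87 bases. Pnliprp1 held 2 E-boxes (63 and 45 bases) and TGGGAA at 91 bases. Pnlip held TTCCCA at 171 bases and no E-box, Pnliprp2 held 1 E-box at 228 bases, and Pla2g1b held neither of these. An E-box with TGGGAA within 40 bases was found in Cel and Pnliprp1, 2 of 5 member windows, and in 7.22% of 32851 RefSeq promoter windows of the same length. An E-box alone was in 3 of 5 member windows and 66.2% of all, and TGGGAA on either strand in 3 of 5 and 21.6% of all. A further 3 motifs were searched. The extended half-site of the nuclear receptor Nr5a2, AAGGNCA on either strand, was in Pnlip and Cel and in 17.5% of all windows. The site of GATA factors, searched as AGATAA on either strand, was in Pnlip and in 9.99% of all. The TATA box, searched as TATAAA on the gene strand, was in Pnlip and in 7.59% of all. In Cel the E-box at 32 bases overlapped the Nr5a2 half-site, and in Pnlip the TATA box overlapped it. A match is a run of letters and not a measured binding site, and no match in a window of this length says nothing about the factor. An annotated start need not be the start used in these cells.

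Among the lipases, Pnlip had a processed signal of 8180 intensity units in ADM, 1915 in duct and 39283 in acinar. Its levels were 6.82, 4.32 and 10.12 in ADM, duct and acinar. ADM thus stood 9.85-fold below acinar (−3.30 ± 0.20 log2 units) and 5.66-fold above duct (2.50 ± 0.20), and duct stood 55.8-fold below acinar (−5.80 ± 0.20). The ± here is the Feature Extraction error of both spots combined, about 10% of each signal. It covers the spot and not the spread between animals or dissections.

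Pnliprp1, the relative with little known lipase activity, gave 47260 intensity units in ADM, 3064 in duct and 63420 in acinar. The level was 9.35 in ADM and 10.81 in acinar, so ADM lay near acinar, 2.75-fold below it (−1.46 ± 0.20). Against duct it was 20.4-fold higher (4.35 ± 0.20), and duct was 56.3-fold below acinar (−5.81 ± 0.20). The difference between ADM and acinar fell short of 2-fold with quantile normalization (−0.69) and without scaling between arrays (−0.42). Set beside Pnlip, the duct-to-acinar difference was nearly the same, 0.013 log2 units apart with a spot error of 0.29. The ADM-to-acinar difference of Pnlip was 1.84 ± 0.29 log2 units (3.58-fold) larger in size than that of Pnliprp1. A ratio between 2 genes on the same pair of arrays does not depend on a constant used to scale an array, and it rests here on 1 probe per gene. In ADM, Pnlip was at 10.2% of its acinar value and Pnliprp1 at 36.3%.

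Pnliprp2, the galactolipase and phospholipase of the family, had 1369 intensity units in ADM, 26.8 in duct and 5436 in acinar. Its levels were 4.24 in ADM, −1.83 in duct and 7.27 in acinar. The duct spot carried the largest relative spot error of the 21 member readings, 26.8 ± 3.47 intensity units. It was still flagged as well above background, where the lowest such signal on that array was 9.88. ADM was 8.14-fold below acinar (−3.03 ± 0.20) and 67.6-fold above duct (6.08 ± 0.24), a difference that ranked 15th from the top of 14475 genes. Duct was 550-fold below acinar (−9.10 ± 0.24), and only 3 of 13826 genes had a lower value in that comparison. Normexp background correction, which compresses dim signals, gave 4.12 for ADM against duct and −6.59 for duct against acinar, so the direction stayed and the size did not. Against acinar, Pnliprp2 and Pnlip lay 0.27 ± 0.29 apart in ADM, within the spot error, whereas in duct they lay 3.30 ± 0.31 apart.

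Colipase was measured by 2 probes that gave the same order and different sizes. The brighter Clps probe had 171750 intensity units in ADM, 25769 in duct and 245046 in acinar, with levels of 11.22 in ADM, 8.07 in duct and 12.76 in acinar. It put ADM 2.93-fold below acinar (−1.55 ± 0.20) and 8.83-fold above duct (3.14 ± 0.20), and duct 25.8-fold below acinar (−4.69 ± 0.20). No spot on these arrays was marked as saturated. The dimmer Clps probe had 30024, 2209 and 66500 units in ADM, duct and acinar, and gave −2.18 (ADM against acinar), 4.17 (ADM against duct) and −6.35 (duct against acinar), each ± 0.20. The probes thus disagreed by 0.63, 1.03 and 1.66 log2 units in those comparisons, more than the spot error. For 217 genes with a second probe at least as bright as the dimmest member, the gap between probes had a median of 0.204, 0.285 and 0.297 in the same comparisons, with 90th percentiles of 0.969, 1.22 and 1.53. The Clps gap was above that 90th percentile for duct against acinar alone. With the brighter probe, ADM against acinar fell short of 2-fold under quantile normalization (−0.44), normexp (−0.99) and no scaling (−0.51).

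Cel, the esterase for cholesteryl and vitamin esters, had 24188 intensity units in ADM, 2632 in duct and 91804 in acinar. The levels were 8.39 in ADM, 4.78 in duct and 11.35 in acinar. ADM was 7.78-fold below acinar (−2.96 ± 0.20) and 12.2-fold above duct (3.61 ± 0.20), and duct was 94.8-fold below acinar (−6.57 ± 0.20). In ADM it was therefore at 12.8% of the acinar level, next to Pnliprp2 at 12.3% and Pnlip at 10.2%, differences among these 3 that lay within about the spot error (the widest, Cel over Pnlip, was 0.34 ± 0.29).

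Pla2g1b, the phospholipase, had the lowest ADM-to-acinar value of the 6. Its signal was 1984 intensity units in ADM, 887 in duct and 21628 in acinar, with levels of 4.78 in ADM, 3.21 in duct and 9.26 in acinar. Here the ADM value was near the duct one, 2.96-fold above it (1.57 ± 0.20), and 22.4-fold below acinar (−4.48 ± 0.20). It was at 4.47% of its acinar level in ADM, and 70 of 13632 genes had a lower value in that comparison. Duct was 66.3-fold below acinar (−6.05 ± 0.20), a size close to that of Pnlip (0.25 ± 0.29 apart) and Pnliprp1 (0.24 ± 0.29 apart). Against Pnliprp1, the ADM-to-acinar difference of Pla2g1b was 3.02 ± 0.29 log2 units (8.12-fold) larger in size.

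**Figure D2:**
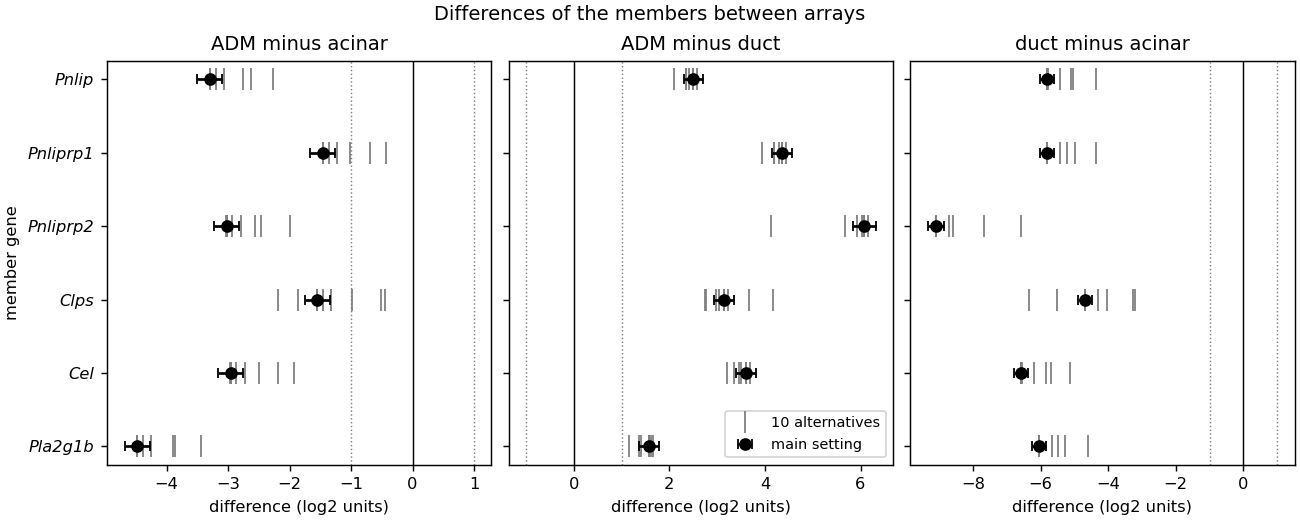
Difference of each member between arrays (horizontal axis, log2 units; ADM minus acinar, ADM minus duct and duct minus acinar), with the spot error as a bar and the 10 other processing settings as grey ticks. Dotted lines mark 2-fold. No tick crosses 0, and in ADM minus acinar the ticks of Pnliprp1 and Clps reach inside 2-fold, down in size to −0.42 and −0.44.

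As measured, the 6 genes did not differ between arrays by a common factor. Of the 15 pairs of members, 11 differed by at least 2-fold in their ADM-to-acinar difference, 11 in ADM-to-duct and 9 in duct-to-acinar. With the dimmer Clps probe these counts were 9, 11 and 5, and over 11 settings they ran from 9 to 11, 8 to 11 and 5 to 9. The pairs share the same 6 genes, and the share over all pairs of genes was not counted. Probes of 1 gene can also differ. Over genes with 2 detected probes, their gap had medians of 0.784, 0.932 and 0.975, and 0.204, 0.285 and 0.297 in the brighter set above. Whether the genes themselves changed by different factors was not tested. The widest pair as processed here was Pnliprp1 over Pla2g1b for ADM against acinar (3.02), Pnliprp2 over Pla2g1b for ADM against duct (4.51) and Pnliprp2 over Clps for duct against acinar (4.41 in size). With normexp the widest for ADM against acinar was Clps with Pla2g1b (2.91) and for ADM against duct Pnliprp1 with Pla2g1b (2.82), with quantile normalization Clps with Pla2g1b for ADM against acinar (3.43), and with the dimmer Clps probe Pnlip with Pnliprp2 for duct against acinar (3.30). The closest pairs as processed here were Pnliprp2 with Cel (0.07), Clps with Cel (0.46) and Pnlip with Pnliprp1 (0.013) in those comparisons. In ADM, the 6 lay at 4.47% to 36.3% of their acinar levels, with Pla2g1b lowest and Clps (34.2%) and Pnliprp1 highest.

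Where ADM lay between duct and acinar was expressed for each gene as a position on the log2 scale, with 0 at the duct level and 1 at the acinar level. Pla2g1b was at 0.259, Pnlip at 0.431, Cel at 0.549, Pnliprp2 at 0.668, Clps at 0.670 and Pnliprp1 at 0.749. Their median was 0.608, and 17 other digestive enzymes (proteases, amylases, a ribonuclease and a kallikrein) had a median of 0.570. The order of these medians turned with normexp (0.599 for the members, 0.614 for the others) and quantile normalization (0.659 and 0.661). Those 17 ran from 0.373 for Rnase1, a ribonuclease, to 0.782 for Prss2, a trypsinogen. Dnase1 was left out, since its duct and acinar levels were less than 2-fold apart. Set among them, Pla2g1b was below the lowest of the 17, and Pnlip was above 1 of them. Pla2g1b stayed below all 17 in each of 11 settings, at 0.249 to 0.295, and Pnlip stayed above 1 of them, at 0.431 to 0.481. Pnliprp1 was above 15 or 16 of the 17 and reached 0.903, and Cel above 4 to 8.

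**Figure D3:**
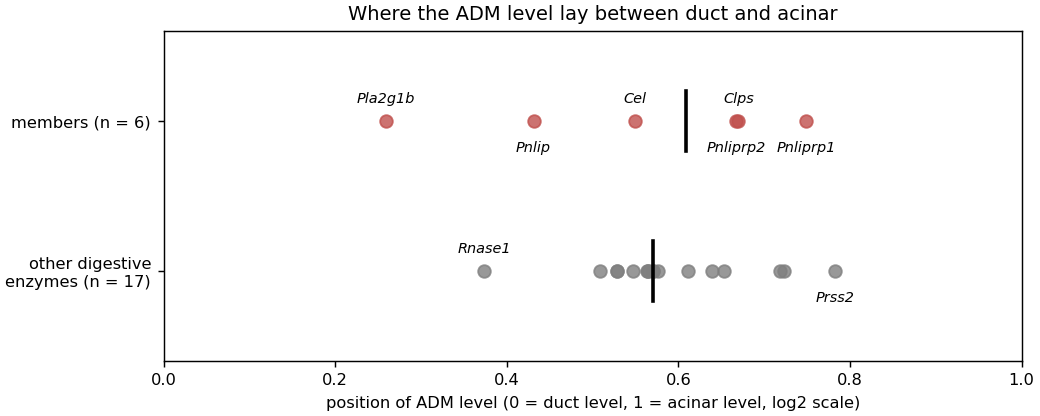
Position of the ADM level between the duct level (0) and the acinar level (1) on the log2 scale for the 6 members (upper row) and 17 other digestive enzymes (lower row). Each point is a gene and each bar a median, 0.608 for the members and 0.570 for the other enzymes; Pla2g1b at 0.259 lies left of every other point.

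The other digestive enzymes, which leave acinar cells in the same granules, had the same directions as the members apart from Dnase1. Of 18 on the array, 18 were at least 2-fold lower in ADM than in acinar, with a median of −1.98 beside −2.99 for the members. In ADM against duct 17 were higher and 1 lower, Dnase1 (−2.36), with a median of 3.16. In duct against acinar 17 were lower, 1 was within 2-fold and the median was −5.14. The elastases Cela1 and Cela2a had the lowest ADM-to-acinar values (−4.14 and −3.87), and the kallikrein Klk1 the highest ADM-to-duct value (5.27). Trypsins, amylases and elastases are close relatives whose probes can bind more than 1 member. Second probes kept the direction in ADM against acinar but not the size for Amy2a5 (−2.98 beside −1.43), Prss1 (−3.35 beside −1.77) and Cela3a (−1.88 beside −2.72). Among 9539 genes well above background on all 3 arrays, those nearest to the mean pattern of the members were the elastases Cela3a (distance 0.076 log2 units over the 3 arrays) and Cela3b (0.115), the chymotrypsin-like Ctrl (0.099), the serpin Serpini2 (0.168) and the regenerating gene Reg3g (0.184). The place of Cela3a rested on the brighter of its 2 probes, and the other gave −3.48 beside −6.23 in duct against acinar. The distance with that other probe was not tested. Singly, Cel lay nearest to Serpini2 (0.045), Clps to Suclg1 (0.065), Pnliprp1 to Vwa5b2 (0.090) and Pnlip to Reep5 (0.102). Pla2g1b and Pnliprp2 had no such close match, their nearest genes being Slc7a5 at 0.495 and Chst2 at 0.935.

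Among listed lipases and phospholipases outside the acinar secretory set, Pla2g6 and Ces1e had the order of the members past 2-fold in all 3 comparisons. Pla2g6 was 1 of 11 cytosolic and other phospholipases A2, 4 of which were well above background on no array. Ces1e was 1 of 14 carboxylesterases and cholesterol ester genes, 7 of which were well above background on no array. Of 18 other digestive enzymes, 17 had this order. In the lists of the wider lipase family, secreted phospholipases A2 and intracellular lipases 0 did. The share of all genes with this order was not counted. Of 9 genes of the wider lipase family and its partners, 3 were well above background on no array. None of the 5 compared was 2-fold apart between ADM and acinar (median −0.11). Lpl, lipoprotein lipase of capillary beds, had levels of 2.71 in ADM, −0.98 in duct and 2.61 in acinar, so ADM was within 2-fold of acinar (0.11) and 12.9-fold above duct (3.69), and duct differed from acinar by −3.58. Its second probe gave 0.33, 2.91 and −2.59. Pla1a, a phospholipase A1 of the same family, had 3.35 in ADM and 3.46 in acinar (−0.11) and was not well above background in duct, so ADM was at least 98.7-fold higher than duct. Both shared with the members a lower level in duct than in acinar, and neither was 2-fold lower in ADM than in acinar. Clpsl2, a colipase-like gene next to Clps, differed by −0.93 in ADM against acinar, 0.98 in ADM against duct and −1.91 in duct against acinar. Lipc, hepatic lipase, was well above background in duct alone, so ADM was lower by at least 5.73-fold. For Lmf1, an endoplasmic reticulum factor that folds lipases, the 2 probes opposed each other in both ADM comparisons.

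The relatives of Pla2g1b were mostly dim. Of 10 secreted phospholipase A2 genes and receptors on the array, 6 were well above background on no array, and 3 could be set between ADM and acinar. For 2 of these, Pla2g2d and Pla2g10, the undetected acinar side of the probe used leaves a bound of 0 and thus no direction, and Pla2g12a was within 2-fold (0.75). The second Pla2g2d probe was well above background in acinar and not in ADM, with −3.60 as measured. The probes of Pla2g2d thus do not settle its direction. In ADM against duct 1 of 4 was past 2-fold, Pla2g12a at 1.27. Of 11 cytosolic and other phospholipases A2, 3 were higher, 1 lower and 2 within 2-fold in ADM against acinar. Pla2g4a, which releases arachidonic acid, had levels of 0.83 in ADM, 3.54 in duct and −1.20 in acinar, the reverse of the members. It differed by 2.04 in ADM against acinar and by −2.71 in ADM against duct. Pla2g6, a calcium-independent phospholipase, had the order of Pla2g1b. Its difference between ADM and acinar was −4.40 (21.1-fold lower in ADM), beside −4.48 for Pla2g1b. It was not well above background in duct, which put ADM at least 2.70-fold above duct and duct at least 57.2-fold below acinar. Pla2g7, which inactivates platelet-activating factor, exceeded its acinar level in ADM by at least 15.3-fold and its duct level by 4.05-fold.

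Lipases that act inside cells divided. Of 12 acid and intracellular lipases, 2 were higher, 2 lower and 3 within 2-fold in ADM against acinar. In ADM against duct, 2 were higher, 3 lower and 2 within 2-fold (median −0.92). The lower ones were Ddhd2 (−3.06), Abhd5 (−1.69, but 2.36 with its second probe) and Ddhd1 (at least 2.01-fold). Lipa, the lysosomal acid lipase, exceeded its acinar level in ADM by at least 13.4-fold and its duct level by 16.6-fold. Lipe, hormone-sensitive lipase, was higher in ADM by 1.49 against acinar and by 1.73 against duct. Mgll, monoacylglycerol lipase, differed by −2.40 in ADM against acinar, but its second probe gave 0.85. Of 14 carboxylesterases and cholesterol ester genes, 7 were well above background nowhere, and in ADM against acinar 1 was higher, 1 lower and 4 within 2-fold, 1 of the 4 being a bound of 0. Ces1e was the lower one, with −1.94 in ADM against acinar, 1.03 in ADM against duct and −2.97 in duct against acinar, and Soat1, which makes cholesteryl esters, the higher one (at least 1.76). Markers of macrophages and adipocytes were read beside these values. In ADM against acinar, 9 of 11 macrophage markers were higher (median 1.74) and 0 lower, where 21.8% of all genes compared were higher. Adgre1 was counted at 3.10, while its second probe gave −0.80. Csf1r was counted at −0.07, while its second probe gave 1.91. The summed signal of the macrophage markers was nonetheless 920 in ADM and 1423 in acinar in multiples of the 75th percentile. That sum was mostly Itgam, at 9.54 in ADM and 10.41 in acinar. Of 7 adipocyte markers compared between ADM and acinar, 1 was higher (Fabp4, 1.12), 1 lower (Cfd, −1.34) and 5 within 2-fold (median −0.20). In ADM against duct, 2 of 8 were higher (Fabp4, 4.09, and Cfd, at least 1.67), 1 was lower (Plin4, at least 17.5-fold) and 5 were within 2-fold. Adipoq and Lep were well above background on no array. The part of these cells in the values of Lipa, Pla2g7 and Lpl was not tested.

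**Figure D4:**
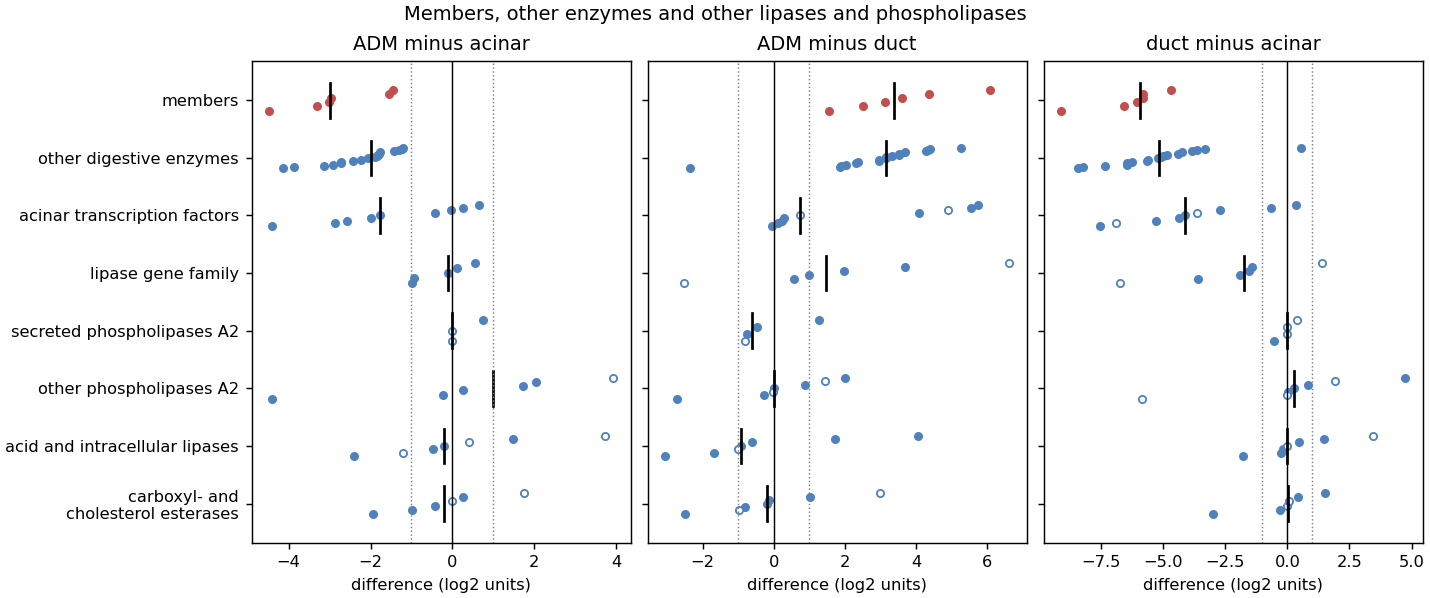
Differences between arrays (horizontal axis, log2 units) for the members and 7 gene lists; each point is a gene, open points are bounds, black bars are medians and dotted lines mark 2-fold. The members and the other digestive enzymes lie left of the lower 2-fold line in ADM minus acinar, with medians of −2.99 and −1.98, while the other lipase and phospholipase lists have medians from −0.21 to 0.99.

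Transcription factors of the acinar programme did not all follow the members. Of 9, 5 were at least 2-fold lower in ADM than in acinar and 4 within 2-fold (median −1.77). Mecom was counted as lower (−2.87), but its second probe, not well above background in acinar, gave 2.09, so its direction is not settled. In duct against acinar, 7 were lower and 2 within 2-fold (median −4.10). Ptf1a had levels of 2.67 in ADM, −1.40 in duct and 2.70 in acinar, so it differed by −0.03 between ADM and acinar where the members differed by −4.48 to −1.46. Its partner Rbpjl had 4.40 in ADM, −1.35 in duct and 6.17 in acinar, a difference of −1.77 (3.41-fold lower) between ADM and acinar. Nr0b2, a nuclear receptor that represses others, was 21.2-fold lower in ADM than in acinar, and Bhlha15, the secretory factor Mist1, 5.97-fold. For Nr5a2 the probes gave 0.27 and −1.52 between ADM and acinar, so its direction there is not settled.

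Genes next to the members on the chromosome were read as a local comparison. Around the chromosome 19 cluster of Pnlip, Pnliprp1 and Pnliprp2, the flanking genes Ccdc172, Gfra1 and Hspa12a were well above background on no array, and 1700019N19Rik differed by −0.34 in ADM against acinar, within 2-fold. Beside Cel on chromosome 2, the nearest gene on one side, Ralgds, went the opposite way in ADM against acinar (2.38), and the nearest on the other, Gtf3c5, the same way (−1.38). Gbgt1 and Gfi1b, next out, were not well above background on any array. Beside Pla2g1b on chromosome 5, Msi1 (0.21) and Cox6a1 (−0.68) were within 2-fold in ADM against acinar, Sirt4 was higher (at least 1.44) and Pxn lower (−1.67). Beside Clps on chromosome 17, Clpsl2 (−0.93), Lhfpl5 (−0.81) and Srpk1 (0.14) were within 2-fold, and Armc12 was dim on each array. In duct against acinar, 1700019N19Rik (−1.19), Clpsl2 (−1.91), Cox6a1 (−1.01) and Pxn (−3.76) were lower past 2-fold, and Ralgds (3.91) and Sirt4 (at least 2.17) higher. In ADM against duct, Pxn was higher (2.09), and Ralgds (−1.53) and Gtf3c5 (−1.62) lower. Pxn alone thus had the order of the members past 2-fold in all 3 comparisons. The neighbours were chosen by position and not by value.

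The labels were checked against marker genes. Acinar markers were well above background in 10 of 10 on the ADM and acinar arrays and in 8 of 10 on duct, with summed signals of 7779 in ADM, 1381 in duct and 24042 in acinar. Of these markers, Cpa1, Ctrb1, Cela1, Cela2a, Amy2a5 and Prss2 are also among the other digestive enzymes above, so this check is not separate from that comparison. Of 9 duct markers compared, 9 were at least 2-fold higher in duct than in acinar, where 27.4% of all genes compared were. Cftr, the other duct marker, was well above background on no array. In ADM, 5 of 9 duct markers were higher than in acinar and 0 lower, and 6 of 9 were lower than in duct and 1 higher. In ADM against acinar, 8 of 10 fibroblast and stellate markers were higher and 1 lower (median 2.50), where 21.8% of all genes compared were higher. Their summed signals were 316 in ADM, 313 in duct and 82.7 in acinar. Islet markers were well above background in 8 of 8 on each array. In ADM against acinar, 5 of 8 islet markers were higher and 0 lower (median 1.23). Of 6 endothelial markers compared there, 4 were higher and 1 lower. The part of acinar RNA on the duct array, and of RNA from these other cells on the ADM array, in the members' differences was not tested. The acinar array was weaker, with 22654 of 55664 probes well above background, where ADM had 27676 and duct 27849. The 75th-percentile signals were 72.2 in ADM, 95.7 in duct and 35.2 in acinar. Probes spotted 3 or more times varied by a median SD of 0.116 on ADM, 0.0931 on duct and 0.129 on acinar (log2 units).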

How the data were processed

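Total RNA of the dissected cells was amplified from 1.181 ng with a whole-transcriptome kit and 2.0 µg of cDNA was labelled with Cy3, per the labels' protocols. The deposited scanner tables give each spot's intensity, unlogged. Agilent Feature Extraction 11.5.1.1 subtracted background and removed the spatial trend within an array, with no scaling between arrays, per the file headers. The deposited value table holds log2 values of 32939 probes, which differed from the log2 processed signal by a constant per array (ADM −6.17, duct −6.58, acinar −5.13), to within 0.001 in 32905 probes. Its direction and lack of gene centring were thus settled, the origin of the constants was not. Its column medians were −0.56 for ADM, −0.63 for duct and −0.57 for acinar.

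Control spots and spots flagged as outliers (110 to 117 an array) were left out, log2 signals of repeated spots were averaged, and the 75th percentile over 55664 probes was subtracted. Since under 50% of probes were detected on ADM and acinar, the percentile over probes detected on all 3 arrays was an alternative. Of the probes, 28020 matched 1 symbol by accession in a RefSeq table of GRCm38.p6 and 27644 stayed unnamed here. The files' probes were annotated on mm9, so that table served for names and neighbours, and the promoters come from RefSeq with the GRCm38.p6 build. The brightest probe stood for a gene. Comparisons needed a detected probe (flagged well above background) on 1 or both arrays. An undetected side was raised to the dimmest detected signal of its array where it lay under it, and the difference is then written "at least". Genes were counted at 2-fold, with no test, as the design has 1 array per group. The script was tested on simulated data.

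Members, lists and rules were chosen with earlier results of these data known. Named were all members, up to 3 genes a direction and comparison from each list past 2-fold, the 5 genes nearest to the members' mean pattern and the nearest to each member. Not every list gene that this allows is described, Pla2g15 and Ces1d being examples. Other genes (Ptf1a, Nr5a2, Clpsl2, Pla2g2d, Pla2g10, the neighbours and the marker genes) are named for their role or position. Alternatives were 3 scalings, normexp (offset 50, on median spot and background intensity), the deposited table, the mean or the second-brightest probe, 2 filters and, added after seeing the data, no scaling. Python 3.11.15, pandas 2.3.3, numpy 2.4.6, matplotlib 3.10.9, R 4.3.3 and limma 3.58.1 were used.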

Additional observations from a re-analysis of the deposited data

How the results depend on the processing

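Some alternatives could move no member, or Clps alone. The 2 filters left all 6 unchanged, as each was well above background on all 3 arrays. The mean and the second-brightest probe could change Clps alone, the other 5 genes having 1 probe. The deposited table gave nearly the main values (Cel in ADM against acinar −2.962 beside −2.961). Of 180 member differences under 10 alternatives, 0 reversed, 147 moved by less than 1.5-fold, 28 moved by more and 5 fell short of 2-fold. Those 5 were Clps in ADM against acinar with quantile normalization (−0.44), normexp (−0.99) and no scaling (−0.51), and Pnliprp1 in the same comparison with quantile normalization (−0.69) and no scaling (−0.42). The median of the 6 members in ADM against acinar was −2.38 with quantile normalization and −1.96 without scaling, and in duct against acinar −5.26 with quantile normalization, −4.49 without scaling and −5.24 with normexp. Under the other alternatives these medians moved by less than 1.5-fold, and in ADM against duct the range was 2.97 to 3.89. The median position of the other enzymes moved to 0.681 without scaling, with the members at 0.682. Members past 2-fold numbered 4 to 6 of 6 in ADM against acinar and 6 of 6 in both other comparisons. Without scaling, the median of all genes compared shifted by 0.86, −0.41 and 1.34 (ADM against acinar, ADM against duct, duct against acinar), and relative to it 6 of 6 members were past 2-fold, with Pnliprp1 at −1.28 and Clps at −1.37 in ADM against acinar. With no filter that median was −0.51 in ADM against acinar, 0.16 in ADM against duct and −0.60 in duct against acinar, and relative to it 5 of 6 were past 2-fold in ADM against acinar, Pnliprp1 being at −0.95. Median scaling shifted it by −0.16 in ADM against duct and 0.28 in duct against acinar. The background is more sensitive. Genes lower in ADM than in acinar numbered 2999, 942 with normexp, 1069 without scaling and 7969 with no filter, genes lower in duct than in acinar 3398, 1501, 1169 and 8829, and genes higher in ADM than in duct 3121 and, with normexp, 1503. The share of higher among genes past 2-fold was 49.7%, 46.5% and 52.7% in the 3 comparisons, 85.3%, 31.5% and 87.5% without scaling, and 64.7% with median scaling in duct against acinar. With normexp it was 64.4% in ADM against acinar and 65.7% in duct against acinar, and with no filter 33.3% and 34.9%. No paired analysis was possible because each group has 1 array. Why the sizes move was not tested. The dimmest member signal, Pnliprp2 in duct at 26.8 intensity units, lay above the lowest signal well above background there, 9.88, so signal over background limited none of the member comparisons to a bound.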
